A study of Mus musculus with 4 samples.

Results

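The comparison set 2 mouse cell lines of the oligodendrocyte precursor lineage (OPCL61 and OPC) against 2 lines of the neural stem cell lineage (NSCL61 and NSC). These are all 4 samples of the series, with 1 array per line. OPCL61 cells are glioma-initiating cells derived from oligodendrocyte precursor cells, and OPC are the precursor cells themselves. NSCL61 cells are glioma-initiating cells derived from neural stem cells, and NSC are the stem cells. The agent that made the L61 lines, the genotype, strain and age of the source animals, and whether a line is 1 clone are not given in the sources used here. Levels of miRNA were measured on 1-colour Agilent mouse arrays with 1023 mouse miRNAs. The question was which differences between the lineages have the same sign in the L61 state and in the normal state. The L61 difference (OPCL61 minus NSCL61) and the normal difference (OPC minus NSC) share no array.

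miRNAs are short RNAs that guide the silencing of messenger RNAs, mostly by pairing through the seed near their 5′ end. Each is cut from a hairpin precursor, from which the 5′ arm (5p) or the 3′ arm (3p) can be retained. Neural stem cells give rise to neurons, astrocytes and oligodendrocytes, whereas oligodendrocyte precursor cells are committed towards the myelin-forming cell and rely on miRNAs such as miR-219 and miR-338 when they differentiate. Glioma-initiating cells are cells that can start a glioma.

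Of the 1023 miRNAs, 271 were well above background, by the scanner software's flag, on at least 1 array. The number was 206 in OPCL61, 139 in OPC, 228 in NSCL61 and 170 in NSC. The summed unscaled signal was 95030 units in OPCL61 and 32111 in OPC, against 251259 in NSCL61 and 77997 in NSC, so the OPC array was the dimmest. Signals were scaled to the upper quartile of the probes shared by all arrays, and levels are given in these scaled units. The scaling shift between the lines (OPC line minus NSC line, log2) was −1.06 in L61 cells and −0.78 in normal cells, so each scaled difference lies above the unscaled one by that size. A probe at the lowest signal on both arrays of a state came out at 1.13 in L61 cells and 0.72 in normal cells. miRNAs just above that signal carry a like difference.

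**Figure D1:**
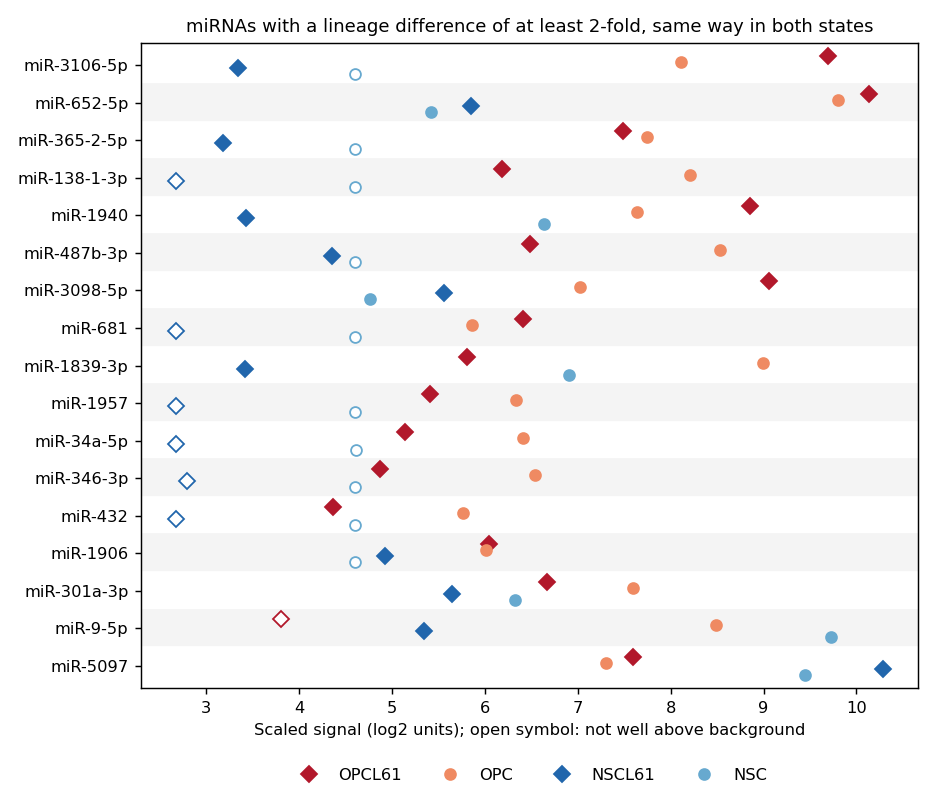
Scaled signal (log2 units, x axis) of the 17 miRNAs that differed at least 2-fold the same way in both states, with 1 point per cell line and open symbols for values not well above background. In the upper 15 rows both OPC-lineage points lie right of the NSC-lineage point of the same state, and in the lower 2 rows, miR-9-5p and miR-5097, they lie left of it.

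A miRNA was measured in a state when it was well above background in at least 1 of the 2 lines. If only 1 line had it, its level also had to exceed the lowest detected level on the other line's array. That level was 14.2 units on OPCL61 and 42.0 on OPC, against 6.64 on NSCL61 and 25.6 on NSC. Dim miRNAs seen only in an NSC line were therefore dropped more readily. By this rule 152 were measured in both states. A difference counted when it reached 2-fold and 2 spot standard errors. Where the dimmer line was not well above background, the value is a lower bound, written "at least". Of the 152, 15 miRNAs (9.87%) were higher in the OPC lineage in both states and 2 (1.32%) were lower. These 17 are called kept below. The split turns with the scaling: without any it was 8 higher and 23 lower, and with the upper quartile of all probes 8 and 21. A further 16 (10.5%) differed in opposite ways in the 2 states, 60 counted in 1 state only, and 59 in neither. The sequences of those on which the results turn are shown first, because the printed pairs of arms and the seeds recur below. They are RefSeq mature sequences of build GRCm38.p6, written 5′ to 3′, with the seed (bases 2 to 8) in capitals. The first group holds kept miRNAs and, for 2 of them, the other arm of the same hairpin.
miR-652-5p: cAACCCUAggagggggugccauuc
miR-652-3p: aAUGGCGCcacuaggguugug
miR-138-1-3p: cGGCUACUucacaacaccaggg
miR-138-5p: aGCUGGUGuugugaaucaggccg
miR-365-2-5p: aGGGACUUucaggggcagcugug
miR-3098-5p: uCCUAACAgcaggaguaggagc
miR-301a-3p: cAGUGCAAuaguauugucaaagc
miR-34a-5p: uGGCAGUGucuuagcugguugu
miR-9-5p: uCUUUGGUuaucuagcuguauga
The second group holds miRNAs that differed in opposite ways in the 2 states.
miR-2137: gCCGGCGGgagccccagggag
miR-1224-5p: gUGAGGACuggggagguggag
miR-211-3p: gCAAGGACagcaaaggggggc
miR-322-5p: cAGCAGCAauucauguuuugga
miR-27b-3p: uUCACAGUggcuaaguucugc
miR-221-3p: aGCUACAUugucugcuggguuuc

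Of the 33 miRNAs kept or opposite, 23 were matched to a RefSeq mature sequence by name. The 11 kept miRNAs with a sequence had 11 different seeds, and none of these 11 lay within 10000 bases of another; positions of the other 6 were not used here.

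Among miRNAs well above background on all 4 arrays, 5 were higher in the OPC lineage in both states. miR-652-5p, the 5′ arm of the Mir652 hairpin (chrX:142739020-142739043, plus strand), had 1124 scaled units in OPCL61 and 892 in OPC, against 57.9 in NSCL61 and 42.7 in NSC. Both OPC lines lay far above both NSC lines, by 19.4-fold in L61 cells (log2 difference 4.28, spot SE 0.014) and by 20.9-fold in normal cells (4.38, spot SE 0.032). The 2 probes for miR-652-5p differed in size. On the dimmer probe OPCL61 had 85.4 units and OPC 58.7, against 42.5 in NSCL61 and 52.9 in NSC, log2 differences of 1.01 and 0.15. The other arm went the other way: miR-652-3p had 64.3 units in OPCL61 and 48.0 in OPC, against 91.0 in NSCL61 and 72.9 in NSC (−0.50 and −0.60).

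miR-3098-5p had 534 units in OPCL61 and 130 in OPC, against 47.0 in NSCL61 and 27.2 in NSC. Its log2 difference was 3.50 in L61 cells and 2.26 in normal cells, and its other probe gave 2.58 and 1.60. miR-1839-3p had 55.9 units in OPCL61 and 509 in OPC, against 10.66 in NSCL61 and 120 in NSC. The L61 lines had less of it than the normal line of the same lineage in both cases, while the lineage difference stayed close, 2.39 in L61 cells and 2.09 in normal cells. All 3 of its probes gave a difference over 2-fold in both states, from 1.36 to 2.39 in L61 cells and from 2.09 to 2.15 in normal cells, although 2 of them were not well above background in NSCL61.

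miR-301a-3p, an intronic miRNA whose seed AGUGCAA is shared with the miR-130 family, had 102 units in OPCL61 and 193 in OPC, against 50.1 in NSCL61 and 80.02 in NSC. Its log2 differences of 1.02 and 1.27 lay just past the 2-fold limit in L61 cells. It was not kept under any of the other 4 scalings, where the L61 difference was −0.04 without scaling, −0.11 with the upper quartile of all probes, 0.29 with the median of shared probes and 0.19 with quantile normalization. Both other measured miRNAs with this seed counted in at most 1 state. miR-130b-3p gave 1.99 in L61 cells and 0.22 in normal cells, and miR-130a-3p 0.93 and −0.09. miR-1940 had 464 units in OPCL61 and 200 in OPC, against 10.72 in NSCL61 and 99.6 in NSC. It was 43.3-fold higher in L61 cells and, at a log2 difference of 1.002, only just past the limit in normal cells; its other probe gave 3.80 and 0.30, and without scaling the normal difference was 0.22.

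The other 10 miRNAs higher in the OPC lineage in both states were not well above background in at least 1 NSC line. miR-3106-5p had 831 units in OPCL61 and 277 in OPC, against 10.1 in NSCL61, and was not well above background in NSC. It was 81.9-fold higher in L61 cells and at least 10.8-fold higher in normal cells, and its 2 probes gave nearly the same values. miR-365-2-5p, from 1 of the 2 miR-365 hairpins, had 180 units in OPCL61 and 214 in OPC, against 9.06 in NSCL61, and was not well above background in NSC. It was 19.8-fold and at least 8.35-fold higher. Its other probe was well above background in OPCL61 only (31.8 units). miR-365-3p, whose name does not tell the 2 hairpins apart, did not show this lineage difference. It had 39.8 units in OPCL61 against 47.3 in NSCL61 (−0.25). In normal cells it was well above background in NSC (27.4 units) but not in OPC, where its 41.9 units lay just under the lowest detected level of 42.0.

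miR-138-1-3p (chr9:122682936-122682957, plus strand) had 72.9 units in OPCL61 and 296 in OPC, and was not well above background in either NSC line. The bounds were at least 10.98-fold in L61 cells and at least 11.6-fold in normal cells. Its second, dimmer probe was likewise well above background only in the OPC lineage. The other arm, miR-138-5p, had the reverse pattern of detection: it was well above background only in NSCL61 (17.8 units) and NSC (38.8 units). miR-138-5p is best known from neurons, and from oligodendrocyte precursors, where miR-138 promotes early differentiation, and it is encoded at 2 loci, on chromosomes 9 and 8, of which only the first gives miR-138-1-3p. No difference of miR-138-5p can be drawn for normal cells, since its level in NSC lies below the lowest detected level on the dimmer OPC array, 42.0 units, and in L61 cells the bound is only −0.33 on the log2 scale.

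Detection alone, which does not depend on scaling, set the lineages apart for 18 miRNAs. Well above background in both OPC-lineage lines only were miR-138-1-3p, miR-150-3p, miR-1929-5p, miR-1957, miR-346-3p, miR-34a-5p, miR-432 and miR-681. These 8 were found on the dimmer array of each state. In contrast, the 10 detected in the NSC lineage only were found on the brighter arrays, and they include miR-128-3p and miR-132-3p, both abundant in neurons. They also include miR-155-5p, known from immune cells. The list of blood cell and microglia markers used below holds miR-155-5p and also miR-150-3p, which is among the 8 of the OPC lineage. Of these 10, 0 passed the 2-fold rule in both states, but miR-132-3p did so without scaling (bounds of −1.10 and −1.27), as did miR-132-3p and miR-467f with the upper quartile of all probes. Several of the 10, such as miR-128-3p, miR-155-5p and miR-148b-3p, did not count as measured in both states, since they lay under the lowest detected level of an OPC-lineage array. Of the 8, miR-34a-5p, a p53-induced miRNA that restrains the cell cycle, had 35.2 units in OPCL61 and 85.1 in OPC, at least 5.31-fold and 3.33-fold above the NSC line of the same state. The other probe of miR-34a-5p was well above background in OPCL61 only (15.3 units). miR-346-3p had 29.2 units in OPCL61 and 93.3 in OPC, at least 4.22-fold and 3.65-fold. The other probe of miR-346-3p was not well above background on any array. Without scaling only miR-138-1-3p and miR-346-3p of the 8 passed the rule in both states. miR-150-3p and miR-1929-5p lay just outside the rule, with bounds in normal cells of 0.96 and 0.94 on the log2 scale.

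3 of the kept miRNAs map to the imprinted Dlk1-Dio3 region of chromosome 12, where the maternal allele expresses a large miRNA cluster. miR-487b-3p, which belongs to the list used for this cluster, had 89.4 units in OPCL61 and 371 in OPC, against 20.4 in NSCL61, and was not well above background in NSC (4.38-fold, and at least 14.5-fold). miR-432 (chr12:109595006-109595028, plus strand) was at least 3.097-fold and at least 2.12-fold higher, with 20.6 units in OPCL61 and 54.1 in OPC and not well above background in the NSC lines. miR-1906, which has 1 locus there (chr12:109544588-109544609, plus strand) and another on the X chromosome, had 65.9 units in OPCL61 and 64.5 in OPC, against 30.2 in NSCL61, and was not well above background in NSC. On the array, 108 miRNAs belong to that list or to its span (chr12:108836989-109743784), and 10 were well above background on any array. Of the 5 measured in both states, these 3 were kept higher in the OPC lineage and 0 lower, where the share over all miRNAs was 9.87% and 1.32%. Under each of the other 4 scalings only miR-487b-3p of the 3 was kept: without scaling the L61 difference was 0.06 for miR-1906 and the bound 0.57 for miR-432, and with quantile normalization they were 0.45 and 0.28. The other 2 did not count as kept: miR-494-3p gave log2 differences of 1.56 in L61 cells and 0.17 in normal cells, and miR-345-5p, at the outer end of the span, −0.15 and −0.47. Membership of miR-432 and miR-1906 was looked up after their values were seen, so the 3 of 5 rests partly on members added afterwards. On the list alone, 3 miRNAs were measured in both states and 1 was kept, miR-487b-3p. miR-3072-5p (chr12:109747893-109747914, plus strand), just past the end of the span, was not kept and is not among the 5.

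The 2 miRNAs lower in the OPC lineage in both states were miR-5097 and miR-9-5p. miR-5097 had 193 units in OPCL61 and 158 in OPC, against 1250 in NSCL61 and 698 in NSC. Both OPC lines lay below both NSC lines, by 6.49-fold in L61 cells (log2 difference −2.70) and 4.42-fold in normal cells (−2.14), and its 2 probes gave like values. miR-9-5p, an abundant regulator of neural progenitors and neurogenesis, was not well above background in OPCL61 and had 358 units in OPC, against 40.7 in NSCL61 and 845 in NSC. The lineage difference was at least 2.87-fold in L61 cells and 2.36-fold in normal cells. The dimmer probe of miR-9-5p gave −1.28 in normal cells, and its L61 bound was close to 0. miR-9-3p, the other arm, lay the same way but under 2-fold, with a normal difference of −0.74 and an L61 bound of −0.71.

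**Figure D2:**
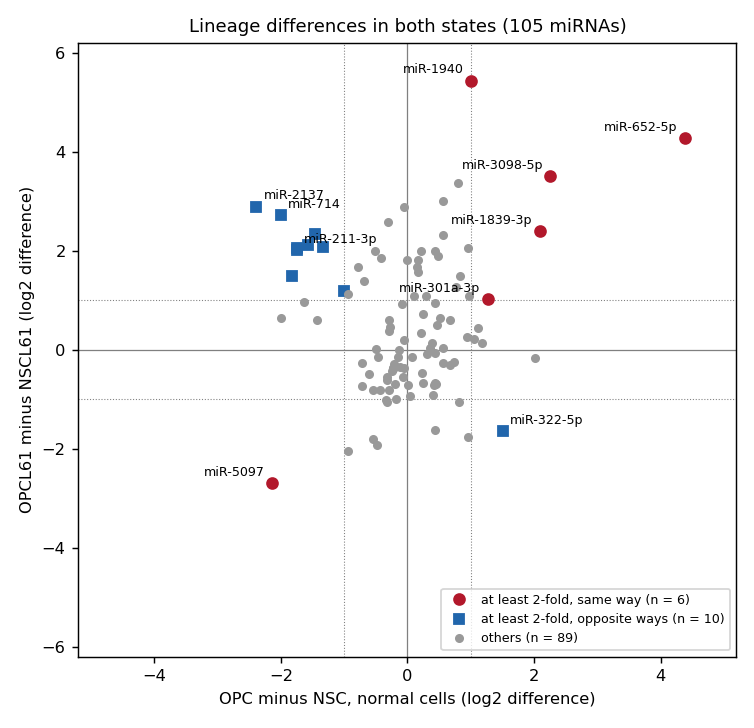
Lineage difference in normal cells (OPC minus NSC, log2, x axis) against that in L61 cells (OPCL61 minus NSCL61, log2, y axis) for the 105 miRNAs well above background on all 4 arrays. Red points (6) passed 2-fold the same way, blue squares (10) passed it in opposite ways, and dotted lines mark 2-fold; 9 squares lie in the upper left and 5 red points in the upper right.

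Across the 105 miRNAs well above background on all 4 arrays, the sign was the same in both states for 60 (57.1%). Both differences were positive for 33 and both negative for 27. For 26 the OPC lineage was higher in L61 cells and lower in normal cells, and for 19 it was lower in L61 cells and higher in normal cells. With each state's differences centred on their median (0.22 in L61 cells and −0.01 in normal cells), 57 (54.3%) had the same sign. The share was between 50% and 66.7% under the other 4 scalings. Across these miRNAs the correlation of the L61 difference with the normal difference was 0.12 (Pearson) and 0.06 (Spearman), and the Pearson value was 0.05 without the 2 most extreme miRNAs. This is a description across miRNAs, which are not independent replicates. The L61 lines differed more than the normal lines, with a median absolute log2 difference of 0.92 in L61 cells and 0.47 in normal cells. Across miRNAs, the levels on the OPCL61 and NSCL61 arrays correlated at 0.81 and those on the OPC and NSC arrays at 0.87. Within a lineage the correlation was 0.80 for OPCL61 with OPC and 0.72 for NSCL61 with NSC. Of the summed squared differences between arrays, 28.0% lay between lineages, 49.6% between states and 22.4% in the interaction of both.

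In limma, all 4 arrays were fitted with lineage and state as terms over the 206 miRNAs that were well above background on 2 or more arrays. For miRNAs not well above background on all 4, values under the highest array floor, 40.1 scaled units on OPC, were raised to it. Their fitted differences can thus be smaller than those given above. For miR-138-1-3p the fit gave 1.87, where the bounds were 3.46 and 3.53, and for miR-1906 it gave 0.70. For miR-1906 (30.2 units in NSCL61 and 24.3 in NSC) and miR-365-2-5p (9.06 and 24.3) both NSC-lineage values were raised, and so became equal. The likeness of their fitted lineage differences in the 2 states was thus partly set by the floor. None passed an adjusted p of 0.05 (0%), and at an unadjusted p under 0.05 there were 10 higher and 2 lower in the OPC lineage. The smallest Benjamini-Hochberg adjusted p was 0.43, for miR-652-5p (fitted log2 difference 4.33, SE 0.18) and for miR-365-2-5p, miR-1839-3p, miR-1906, miR-702 and miR-30d-5p. Unscaled, miR-702 had only 21.2 units in OPCL61 and 21.2 in OPC, against 20.9 in NSCL61 and 18.7 in NSC, close to the floor. Its scaled differences of 1.08 in L61 cells and 0.97 in normal cells lay near the size of the scaling shifts, −1.06 and −0.78. With quantile normalization limma called 2 higher (miR-3106-5p and miR-652-5p), and without scaling these 2 and miR-5097 lower. Those fits pooled the spread over miRNAs far more. Their total degrees of freedom were 12.3 with quantile normalization and 206 without scaling, against 1.65 in the fit reported. Their calls therefore rest less on how alike the 2 states were for each miRNA. Without the OPC array, and then with no block for state, it called 11 higher and 0 lower. With 1 residual degree of freedom per miRNA, the fit measures how alike the lineage difference is in the 2 states and not the spread over cultures. An exact permutation of the lineage labels within states could not give a two-sided p below 0.5.

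How many of the differences in 1 state recurred in the other depended on the direction. In L61 cells 89 of 228 measured miRNAs (39%) were higher and 31 (13.6%) lower in OPCL61 than in NSCL61. In normal cells 28 of 166 (16.9%) were higher and 23 (13.9%) lower in OPC than in NSC. Of the 27 higher in OPC and measured in both states, 15 (55.6%) were also higher in OPCL61, 4 were lower there and 8 did not count, where 40.8% of all 152 were higher in OPCL61. Of these 15, 10 rest on a bound in at least 1 state, and 6 of them on bounds in both states. A miRNA detected in only 1 line of a state was measured only if that line came out higher. The sign of a bound was thus fixed by detection, and the shares in this paragraph include such miRNAs. Of the 21 lower in OPC, 2 (9.52%) were also lower in OPCL61, 12 were higher there and 7 did not count, where 10.5% of all 152 were lower in OPCL61. For the lower group the share lay near that background. The balance turned with the scaling: among miRNAs measured in both states, 62 were higher and 16 lower in OPCL61 and 27 higher and 21 lower in OPC, but without scaling 29 and 72 in L61 cells and 11 and 61 in normal cells. Without scaling, 8 of the 11 higher in OPC were also higher in OPCL61 (72.7%, where 16.0% of all were), and 23 of the 61 lower in OPC were also lower in OPCL61 (37.7%, where 39.8% of all were).

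**Figure D3:**
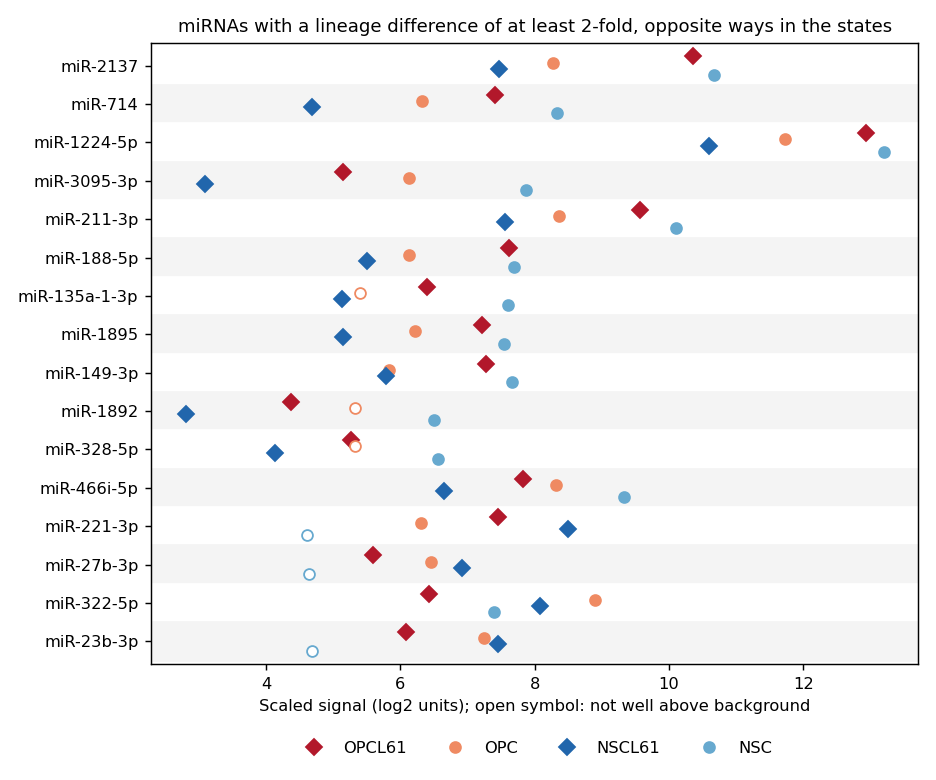
Scaled signal (log2 units, x axis) of the 16 miRNAs that differed at least 2-fold in opposite ways in the 2 states, with 1 point per cell line and open symbols for values not well above background. In the upper 12 rows OPCL61 lies right of NSCL61 while OPC lies left of NSC, and in the lower 4 rows the order is turned.

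With this scaling 16 miRNAs were opposite and 17 kept. The opposite numbered 11 without scaling, 9 with the upper quartile of all probes, 12 with the median of shared probes and 10 with quantile normalization. In 12 of the 16, OPCL61 was above NSCL61 and OPC below NSC. miR-2137 had 1307 units in OPCL61 and 311 in OPC, against 176 in NSCL61 and 1625 in NSC (log2 differences of 2.89 and −2.39). The 2 highest lines were thus the L61 line of 1 lineage and the normal line of the other. miR-714 lay the same way, with 169 units in OPCL61 and 80.2 in OPC, against 25.7 in NSCL61 and 321 in NSC (2.72 and −2.003); of its probes well above background on at least 3 arrays, 1 gave 1.06 in normal cells. miR-1224-5p, a splicing-derived miRNA, had 7826 units in OPCL61 and 3398 in OPC, against 1545 in NSCL61 and 9384 in NSC (2.34 and −1.47). miR-211-3p, from an intron of the melanocyte gene Trpm1, had 761 units in OPCL61 and 328 in OPC, against 189 in NSCL61 and 1102 in NSC (2.01 and −1.75). The other arms of these hairpins, miR-1224-3p and miR-211-5p, were not well above background on any array. miR-188-5p gave 2.11 and −1.57 with its 4 probes alike, miR-3095-3p 2.06 and −1.74, miR-1895 2.08 and −1.33, and miR-149-3p 1.48 and −1.83. The other 4 were miR-135a-1-3p, miR-1892, miR-328-5p and miR-466i-5p, with L61 differences from 1.13 to 1.57.

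In the remaining 4, OPCL61 was below NSCL61 and OPC above NSC. miR-322-5p, the mouse counterpart of human miR-424 and a member of the miR-15 and miR-16 seed family, had 86.5 units in OPCL61 and 479 in OPC, against 271 in NSCL61 and 169 in NSC (−1.65 and 1.505). miR-503-5p, from the same X-linked cluster, gave −0.17 in L61 cells and 2.02 in normal cells. miR-23b-3p had 67.9 units in OPCL61 and 151 in OPC, against 175 in NSCL61, and was not well above background in NSC (−1.37, and at least 2.55). miR-27b-3p, from the same transcript, had 48.1 units in OPCL61 and 88.1 in OPC, against 121 in NSCL61, and was not well above background in NSC (−1.33, and at least 1.78). miR-221-3p, which represses the cell cycle inhibitor p27, had 175 units in OPCL61 and 79.6 in OPC, against 360 in NSCL61, and was not well above background in NSC (−1.04, and at least 1.64).

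**Figure D4:**
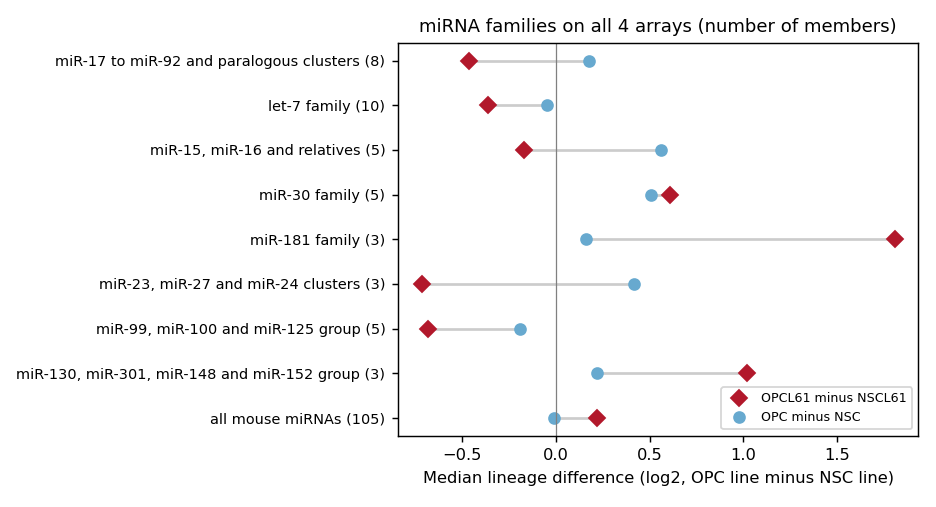
Median lineage difference (log2, x axis) of 8 miRNA families with at least 3 members on all 4 arrays, and of all 105 miRNAs, in L61 cells (diamonds) and normal cells (circles), with the number of members in brackets. The miR-181 family reaches 1.81 in L61 cells and 0.16 in normal cells, and the clusters of miR-23, miR-24 and miR-27 lie at −0.72 and 0.42.

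Over all measured miRNAs 9.87% were kept higher and 1.32% lower, and the family counts below are too small to be told apart from that. In the oligodendrocyte list, which holds miRNAs of differentiation such as miR-219 and miR-338, 4 of 16 members were measured in both states. Of these, 1 was kept (miR-138-1-3p, higher) and 1 was opposite (miR-23b-3p). In the list of neural stem cell and neuronal miRNAs 6 of 29 were measured in both states, of which 1 was kept, miR-9-5p, lower. The let-7 family, which promotes differentiation, had 11 members measured and 0 kept, with medians of −0.36 in L61 cells and −0.05 in normal cells over 10 members on all arrays. The growth-promoting miR-17 to miR-92 clusters had 8 measured and 0 kept (−0.47 and 0.17). In normal cells 2 of them were over 2-fold higher in OPC, miR-106b-5p (1.18) and miR-25-3p (1.06), both from the Mcm7 intron, where L61 cells gave 0.13 and 0.22. Without scaling neither passed in normal cells (0.39 and 0.27), and both were negative in L61 cells (−0.93 and −0.84).

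In the miR-181 family all 3 measured members passed 2-fold in L61 cells with the upper quartile of shared probes. miR-181a-5p had 114 units in OPCL61 and 436 in OPC, against 30.7 in NSCL61 and 313 in NSC (1.89 and 0.48). miR-181b-5p gave 1.67 and 0.16, and miR-181d-5p 1.81 and −0.01. This depended on the scaling: without any, miR-181a-5p gave 0.83 and miR-181b-5p 0.61 in L61 cells, and miR-181b-5p was under 2-fold in all 4 other scalings. The miR-29 family, which represses collagen and other matrix transcripts, lay the other way in L61 cells. miR-29a-3p had 1010 units in OPCL61 and 263 in OPC, against 3442 in NSCL61 and 135 in NSC (−1.77 and 0.96), and miR-29b-3p gave −1.62 and 0.44. In the clusters of miR-23, miR-24 and miR-27 all 5 measured members were lower in L61 cells and higher in normal cells, with 3 past 2-fold in L61 cells. miR-24-3p, for example, had 367 units in OPCL61 and 225 in OPC, against 768 in NSCL61 and 128 in NSC (−1.06 and 0.82). The sign in normal cells turned for miR-23a-3p without scaling (−0.56, where it was 0.23). It turned for miR-27a-3p as well, whose scaled difference of 0.42 was smaller in size than the scaling shift of −0.78. The 0.82 of miR-24-3p was only just larger than that shift.

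Differences were mostly small in 2 further families, where the sign was the same in both states for 57.1% of all 105 miRNAs. All 5 members of the miR-100, miR-99 and miR-125 group on all arrays had the same sign in both states, 4 lower and 1 higher. miR-125a-5p gave −0.72 in both states, miR-99b-5p −1.05 and −0.33, miR-99a-5p −0.68 and −0.19, and miR-125b-5p −0.01 and −0.13, whereas miR-100-5p gave 0.25 and 0.94. The miR-30 family had medians of 0.61 in L61 cells and 0.51 in normal cells, and 3 of 5 members had the same sign. miR-30d-5p had 38.2 units in OPCL61 and 91.3 in OPC, against 24.99 in NSCL61 and 57.4 in NSC (0.61 and 0.67). Over all 105 miRNAs the medians were 0.22 and −0.01, and without scaling they were −0.84 and −0.80, so the signs of such small differences depend on the scaling. Without it miR-100-5p gave −0.81 in L61 cells, and miR-30d-5p −0.45 in L61 cells and −0.12 in normal cells.

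Among miRNAs well above background on all 4 arrays and under 1.5-fold in normal cells, the largest L61 differences were those of miR-671-5p (3.01 in L61 cells and 0.57 in normal cells), miR-3082-5p (2.89 and −0.05) and miR-3077-5p (2.57 and −0.31). miR-3082-5p had 89.1 units in OPCL61 and 111 in OPC, against 12.1 in NSCL61 and 115 in NSC. In scaled units only the NSCL61 value stood apart. Unscaled, miR-3082-5p had 115.8 units in OPCL61 and 44.9 in OPC, against 32.7 in NSCL61 and 80.4 in NSC, so OPC lay near NSCL61; its L61 difference was 1.82 without scaling. Among miRNAs well above background on all 4 arrays and under 1.5-fold in L61 cells, the largest normal difference was that of miR-503-5p, with 20.6 units in OPCL61 and 119 in OPC, against 23.2 in NSCL61 and 29.4 in NSC. In scaled units only OPC stood apart, but unscaled its signal was 26.8 units in OPCL61 and 48.2 in OPC, against 62.9 in NSCL61 and 20.5 in NSC, and the L61 difference was −1.23 without scaling.

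**Figure D5:**
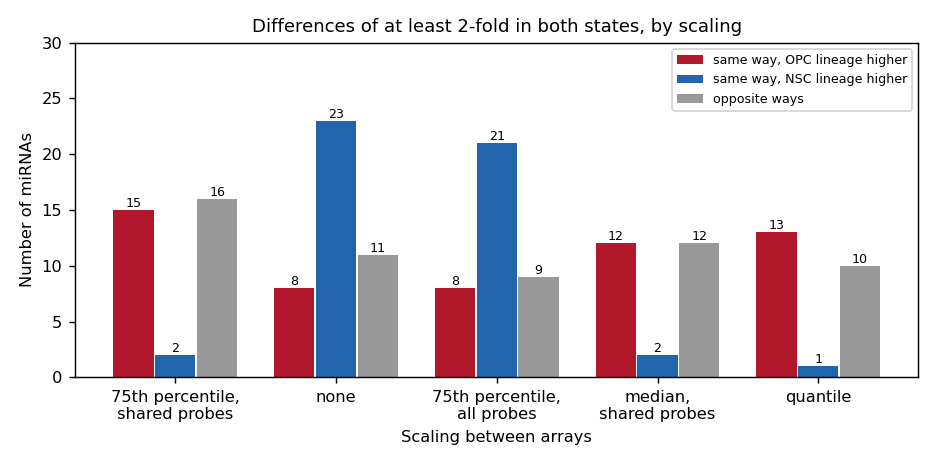
Number of miRNAs (y axis) at least 2-fold different the same way with the OPC lineage higher (red), the same way with the NSC lineage higher (blue), and in opposite ways (grey), under 5 scalings between arrays (x axis). The red bars fall to 8 and the blue bars reach 21 and 23 where arrays are not scaled or are scaled over all probes.

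The split between higher and lower kept miRNAs depended on the scaling between arrays. With the upper quartile of shared probes 88.2% of the kept miRNAs were higher in the OPC lineage, with the median of shared probes 85.7% (12 higher, 2 lower), and with quantile normalization 92.9% (13 higher, 1 lower). Without scaling 25.8% were (8 higher, 23 lower), and with the upper quartile of all probes 27.6% (8 higher, 21 lower). Under all 5 scalings 7 miRNAs were kept higher by their brightest probe: miR-652-5p, miR-3106-5p, miR-365-2-5p, miR-138-1-3p, miR-3098-5p, miR-487b-3p and miR-1839-3p. With the upper quartile of shared probes, the other probe of miR-652-5p gave only 0.15 in normal cells. That of miR-365-2-5p was well above background in OPCL61 only. miR-5097 was kept lower under all 5, and miR-2137, miR-714 and miR-23b-3p were opposite under all 5. Across the scalings miR-652-5p was between 8.87-fold and 19.4-fold higher in L61 cells and between 12.1-fold and 24.8-fold in normal cells. miR-487b-3p came closest to the limit, at 2.001-fold in L61 cells with scaling over all probes. miR-9-5p was not kept lower under quantile normalization. With normexp background correction 7 were kept higher and 2 lower.

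The base composition was compared without a test. The share of G and C in the mature sequence had a median of 59.98% in 10 of the 15 kept higher, 66.7% in 9 of the 12 that were higher in OPCL61 but lower in OPC, and 47.8% in 82 of the 105 on all arrays. It was 47.6% in 3 of the 4 that were lower in OPCL61 but higher in OPC, and 34.8% in miR-9-5p, which was kept lower. Across those 82 the GC share correlated at 0.43 with the L61 difference and at −0.32 with the normal difference (Pearson, over miRNAs that share 4 arrays). Split at a GC share of 60%, a limit chosen after the data were seen, 22 GC-rich miRNAs had medians of 1.65 in L61 cells and −0.41 in normal cells, and the other 60 had −0.15 and 0.09. The part of base composition in these results was not tested.

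Few markers of the labelled cell types were detected. Of 5 markers of the oligodendrocyte lineage, 0 were well above background in OPCL61, 1 in OPC, 1 in NSCL61 and 2 in NSC. miR-338-3p had 51.4 units in OPC, against 17.7 in NSCL61 and 53.2 in NSC, and miR-219-5p was detected in NSC only. Of 6 markers of neural stem and progenitor cells, 0 were detected in OPCL61 and 2 in OPC (summed signal 1271 units), against 2 in NSCL61 (63.9 units) and 3 in NSC (2415 units). The 3 in NSC were both arms of miR-9 and miR-124-3p, which is also on the list of neuron markers. Of the other cell types, all markers of muscle (12) and hepatocytes (7) were below detection on every array. Summed signals of blood cell and microglia markers were 350 units in OPCL61 and 49.6 in OPC, against 27.2 in NSCL61 and 27.8 in NSC. miR-150-3p alone made up 292 units in OPCL61 and the whole sum in OPC, while miR-150-5p was not well above background on any array. Neuron markers summed to 0 detected in OPCL61 and 95.3 units in OPC, against 25.3 in NSCL61 and 222 in NSC. Of 14 epithelium markers, 1 was detected, miR-205-5p in NSCL61 (110 units), and of 2 endothelial markers, miR-126-3p in NSCL61 (9.50 units). Those of fibroblasts, pericytes and smooth muscle were 41.4 in OPCL61 and 47.6 in OPC, against 285 in NSCL61 and 0 detected in NSC. Their part in the lineage differences was not tested.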

How the data were processed

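Total RNA of each line (100 ng) was labelled with Cy3 and hybridised to 1 array, per the labels' protocols. The authors read the deposited signal intensity with Agilent Feature Extraction (version 10.7.3.1, as named in the submitters' processing notes). Per the file headers it was detrended over the slide after background subtraction, arrays were not normalized to each other, and all 4 shared 1 slide and 1 scan. The deposited value table held the same intensity (largest difference 0).

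Outlier spots (1842 to 2365 per array) were left out. Spot values were raised to the lowest spot signal well above background (16.3 to 18.2 units), log2-transformed and averaged per probe (2645 probes, median spot SD 0.086 to 0.120 on the log2 scale). A probe was well above background if 50% of its spots were. Arrays were scaled by the 75th percentile over 182 probes well above background on all 4, and a miRNA took its brightest probe. A bound set the brighter line against the higher of the lowest detected probe level of the dimmer array and the dim probe itself. Where the detected line did not come out higher, the miRNA was not measured in that state. limma 3.58.1 in R 4.3.3 used a trended prior variance and Benjamini-Hochberg adjustment. No saturated spots were found. Spot errors are technical, nothing in the labels names separate cultures, and the number of arrays limits precision.

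The question, the 17 miRNA lists and the 9 marker lists were chosen with earlier results of these data known. Named miRNAs followed a rule on kept, opposite and state-specific differences, smallest adjusted p and list members. It took 59, and others, such as the remaining kept and opposite miRNAs, second arms and further family members, were named after their values were seen. RefSeq sequences were matched by name. Simulated data were used to test the limma step. Recovery of set differences was required only at a spread far below that of these data, so this does not show the power reached here. Alternatives were 4 scalings, normexp background correction with an offset of 50, all spots, the mean over probes, other fold limits and filters, no block, a constant prior variance and leaving out each array.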

Additional observations from a re-analysis of the deposited data

Results flagged for a closer look

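The lineage difference of 16 miRNAs ran in opposite ways in the 2 states, and the difference between states was not tested, since each line has 1 array. Subtracting the normal difference (OPC minus NSC) from the L61 difference (OPCL61 minus NSCL61) gave, on the log2 scale, 5.28 for miR-2137, 4.72 for miR-714, 3.81 for miR-1224-5p, 3.81 for miR-3095-3p, 3.76 for miR-211-3p and 3.67 for miR-188-5p. It gave 3.46 for miR-135a-1-3p, 3.41 for miR-1895, 3.31 for miR-149-3p, 2.67 for miR-1892, 2.30 for miR-328-5p and 2.19 for miR-466i-5p. It was negative in 4, with −3.92 for miR-23b-3p, −3.15 for miR-322-5p, −3.11 for miR-27b-3p and −2.68 for miR-221-3p.

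Probes for viral miRNAs, which enter no comparison, were well above background for 14 of 135 probes on OPCL61 and 7 on OPC, against 12 on NSCL61 and 8 on NSC. Of 1000 negative control spots per array, 4 were well above background on OPCL61 and 5 on each of the other arrays.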

How the results depend on the processing

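The count of kept miRNAs, 15 higher and 2 lower in the OPC lineage, was 8 higher and 23 lower without scaling, 8 and 21 with the upper quartile of all probes, and 13 and 1 with quantile normalization. With normexp background correction 7 were higher, with the mean over probes 1 was lower, at 1.5-fold 27 and 5, at 4-fold 7 and 1, and for miRNAs on all 4 arrays 5 and 1. Leaving out 1 array leaves the calls of 1 state, between 28 and 89 higher and between 23 and 31 lower; without OPC or without NSC there were 89 higher, and without OPCL61 or without NSCL61 there were 28. The limma calls, 0 in the fit reported, were 2 higher and 1 lower without scaling, 1 and 1 with the upper quartile of all probes, 2 and 0 with quantile normalization and 1 and 0 with all spots kept (miR-702). miR-702 lay close to the floor on all 4 arrays. The total degrees of freedom were 206 without scaling and with the upper quartile of all probes, against 1.65 in the fit reported. In those 2 fits the spread was taken wholly from pooling over miRNAs. With 1 array left out and no state block they were between 0 and 11 higher and 0 lower; the 11 came without OPC, where OPCL61 alone stands for its lineage and is assumed to vary like the others. Without the block for state and with all arrays limma called 0. A limma fit over all mouse miRNAs could not be made, because 79.4% lay at the floor on all arrays. The share of equal signs stayed between 50% and 66.7%. The causes of these shifts were not tested. Low signal limits what can be read: the lowest detected level was 14.2 units on OPCL61 and 42.0 on OPC, against 6.64 on NSCL61 and 25.6 on NSC.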
